A study of Mus musculus with 15 samples.

Results

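The effect of 4-hydroxytamoxifen (4-OHT) alone was measured in mouse fibroblasts of the immortalised line NIH3T3 that carried an empty retroviral vector. The members were chosen by their titles: 2 arrays of vector control cells given 4-OHT and 2 arrays of vector control cells without it, 4 of the 15 Affymetrix arrays in the series. Cells of both groups were transduced with pBabe-puro without an insert, grown for 7 days until confluent, and treated for 24 h with 0.2% ethanol, either alone or carrying 4-OHT at a labelled concentration of 0.1 mM. This concentration is far above those usually given to cells, and whether its unit is a typing error cannot be settled from the labels or the data, so the true dose is uncertain. The other 11 arrays were of NIH3T3 cells transduced with RUNX genes in the same vector, among them 4 arrays of cells with a RUNX1-ER construct, uninduced or induced with 4-OHT under the same protocol. Titles number the arrays as biological replicates 1 and 2. No label says that the replicates were grown or transduced separately. The p-values therefore cover only the spread between replicate arrays, possibly a technical one, and precision is limited by their small number. This spread was pooled over the groups of all 15 arrays. The labels do not say how many clones a line holds, and all groups used here received ethanol, so that an effect of ethanol was not measured.

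4-OHT is the active metabolite of tamoxifen and a ligand of the oestrogen receptors. In cell biology it is used to release proteins fused to an oestrogen receptor ligand-binding domain from the chaperones that hold them inactive, and cells with an empty vector serve to measure what the ligand does without such a fusion. Besides oestrogen receptors, tamoxifen and its metabolites bind the sterol-processing enzymes Ebp and Dhcr7, which together form the microsomal antioestrogen binding site, and a shortage of sterols activates the transcription factor SREBP2 and its targets in cholesterol synthesis.

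The arrays read as fibroblasts in both groups. Of 18 fibroblast markers measured, 17 averaged more than 5 log2 units and 15 lay in the brightest of 4 equal level classes. Here and below, level classes and means set against 5 are over all 15 arrays, RUNX lines included. Col1a2, a fibrillar collagen chain, stood at 13.12 and 13.15 without 4-OHT and at 13.16 and 13.18 with it, and the intermediate filament gene Vim stood between 13.09 and 13.14 on all 4 arrays. Lum, a dermal matrix proteoglycan, was dim, between 3.22 and 3.48. Defining genes of other cell types were at the low end of the scale: 0 of 12 macrophage, 0 of 10 muscle, 0 of 7 adipocyte and 0 of 9 haematopoietic markers had a mean above 5, and 2 of 13 epithelial and 2 of 11 endothelial markers did. The summed log2 level of the fibroblast markers was 176.6 and 177.2 without 4-OHT and 176.7 and 176.8 with it, and that of the macrophage markers was 45.6 on each of the 4 arrays. In RNA from whole cultures, fewer cells of a kind and less RNA per cell cannot be told apart.

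Values are log2 units of the RMA method, in which a difference of 1 is 2-fold. Differences were tested for 18193 genes, each by its brightest probe set, with limma, and p-values were adjusted over all genes by the Benjamini-Hochberg method.

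No gene passed the threshold between 4-OHT and vehicle in vector cells. In limma 0 of 18193 genes (0%) had an adjusted p under 0.05, and the smallest adjusted p was 0.298. By its brightest probe set, no gene differed by 2-fold or more between the group means. Among all 45101 probe sets 3 did, with a largest absolute difference of 1.23 log2 units. From the 1st to the 99th percentile of genes, differences ran from −0.40 to 0.33 log2 units, and the median was −0.03. For 18176 of the genes, 99.9%, the 95% confidence interval of the difference lay inside 2-fold in both directions. The interval reached 2-fold for 17 genes, and the median distance from the estimate to its bound was 0.25 log2 units. These intervals are for single genes, and RMA shrinks the differences of dim genes, so that folds at the low end are understated.

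An unadjusted p under 0.05 was reached by 352 genes with higher values under 4-OHT (1.93%) and 873 with lower values (4.80%), together 6.73% of the genes tested. The 4 arrays did not overlap between groups for 1949 genes in the higher direction (10.7%) and 4368 in the lower (24.0%). The excess of lower values moved with level and with scaling. Genes of the third of 4 level classes, with means between 4.48 and 6.83, had a median difference of −0.08, and 431 of them reached an unadjusted p under 0.05 in the lower direction, against 63 in the higher. After quantile normalization of the deposited values the split over all genes was 530 higher and 497 lower, after cyclic loess 530 and 480, and after median centring 403 and 698. The deposited arrays also differed in spread: 75% of gene values lay below 6.89 and 6.84 on the vehicle arrays and below 6.83 and 6.77 on the 4-OHT arrays. The part of this spread in the excess was not tested.

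The counts were repeated without each array. The difference between the replicates had an SD over genes of 0.162 in the vehicle group and 0.220 in the 4-OHT group. The difference between the group means, each over 2 arrays, had an SD of 0.142. Means over 2 arrays vary less than single arrays, so this SD is not directly comparable with those of the replicates. Without 4-OHT replicate 1, 4 genes passed the adjusted threshold in limma and 1855 reached an unadjusted p under 0.05, and without vehicle replicate 1, 0 genes passed and 744 reached an unadjusted p under 0.05. Each of these settings leaves a group of 1 array, which is assumed to vary like the other groups, so the calls rest on a single array. The 4 genes were Ctu1, a tRNA thiolation enzyme, the melanin synthesis gene Dct, the integrin gene Itgax and Trim75. Dct stood at 3.54 on both vehicle arrays and on 4-OHT replicate 1, and at 4.55 on 4-OHT replicate 2. Trim75 likewise stood at 3.08 and 3.11 with vehicle, 2.97 on 4-OHT replicate 1 and 4.28 on replicate 2. In both genes 4-OHT replicate 2 stood apart from the other 3 arrays.

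**Figure D1:**
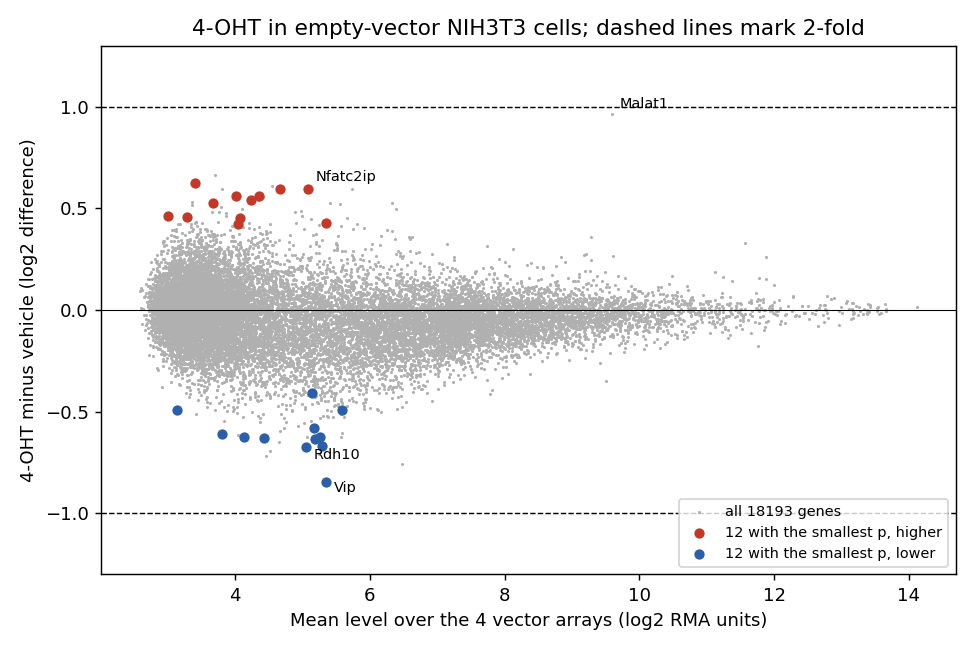
Difference between 4-OHT and vehicle in vector cells (vertical axis, log2 difference) against the mean level over the 4 vector arrays (horizontal axis, log2 RMA units), 1 point for each of 18193 genes, with the 12 genes of smallest p in each direction in colour. All points lie between the dashed lines at 2-fold, and those nearest to them are Malat1 at 0.96 and Vip at −0.85.

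Since no gene passed, the 12 genes with the smallest p in each direction are given with their values. Their adjusted p ran from 0.298 to 0.466 among the higher and from 0.298 to 0.299 among the lower genes, and their 4 arrays did not overlap between groups, a property that the choice by small p favours. The higher genes were dim, with a median vehicle mean of 3.84 and 9 of 12 had a mean over all 15 arrays below the median of all genes. The lower genes were brighter, with a median vehicle mean of 5.42, and 4 of 12 were below the median by their mean over all 15 arrays, which for Vip includes the lower RUNX arrays.

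Among the lower genes, Vip had the largest difference. It encodes vasoactive intestinal peptide, a secreted neuropeptide whose receptors raise cyclic AMP and whose own promoter responds to cyclic AMP. Vip stood at 5.88 and 5.67 in the vehicle arrays and at 4.95 and 4.90 in the 4-OHT arrays. Both 4-OHT arrays were below both vehicle arrays, by more than either pair differed within itself. The difference was −0.85 (SE 0.16, 95% interval −1.20 to −0.49), with an adjusted p of 0.298 in limma. The promoter window of Vip, which spans its start, at chr10:5638968-5639267 on the plus strand of GRCm38.p6 in RefSeq, is shown because it holds the TGACG core of the cyclic AMP response element, in capitals.

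Vip promoter: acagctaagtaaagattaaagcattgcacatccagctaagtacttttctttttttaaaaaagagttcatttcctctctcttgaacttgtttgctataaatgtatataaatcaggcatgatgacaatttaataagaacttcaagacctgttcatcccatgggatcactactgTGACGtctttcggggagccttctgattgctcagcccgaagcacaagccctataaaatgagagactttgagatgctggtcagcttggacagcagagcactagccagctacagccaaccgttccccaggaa

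The full cyclic AMP response element TGACGTCA was not in this window. On either strand, the TGACG core occurred in 26.5% of 18109 RefSeq promoter windows of this length and TGACGTCA, which contains the core, in 2.49%. Windows were found for 11 of the 12 higher and 8 of the 12 lower genes. The core was in those of Spdef, Zcchc12, Cartpt and Ptpdc1 among the higher genes and Cmss1, Rbm4b and Vip among the lower, and the full element in those of Cartpt and Cmss1. The palindromic oestrogen response element, GGTCA and TGACC with 3 bases between them, was in 0 of the 19 windows and in 0.0276% of all windows, and the xenobiotic element TNGCGTG was in 0 of the 19 and in 6.76% of all. The Runx site TGTGGT was in the windows of BC048671 and Rbm4b and in 13.7% of all. A match is a description of these letters and not a site of binding. The 28 measured genes of cyclic AMP signalling and its targets, Vip among them, had a median difference of −0.04, beside −0.03 over all genes. Of these, 0 were higher and 2 lower at an unadjusted p under 0.05, where 1.93% and 4.80% of all genes were.

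Rdh10, the retinol dehydrogenase of the initial step of retinoic acid synthesis, stood at 5.56 and 5.20 with vehicle and at 4.81 and 4.61 with 4-OHT. The groups did not overlap, and the difference was −0.67 (SE 0.11, 95% interval −0.92 to −0.42; limma adjusted p = 0.298). The other probe set of Rdh10, dimmer at means of 4.34 and 4.07, gave −0.27 with an unadjusted p of 0.0349. Of the 19 other probe sets, which belonged to 11 of the 24 genes, 11 had the sign of the brightest, and this was the only probe set of them with that sign and an unadjusted p under 0.05. Taken as the mean over probe sets, differences were smaller, at 0.36 for Nfatc2ip, 0.13 for Edn3, 0.14 for Ptpdc1, −0.28 for Polr3e and −0.23 for Abtb2.

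The other lower genes had values as follows. Polr3e, a subunit of RNA polymerase III, read 5.48 and 5.44 with vehicle against 4.77 and 4.99 with 4-OHT, a difference of −0.58, while its other probe set gave 0.02. Poli, the translesion DNA polymerase iota, read 4.27 and 4.62 against 3.89 and 3.75 (−0.63). Cmss1, a gene related to a ribosomal small subunit protein, read 5.82 and 5.84 against 5.42 and 5.25 (−0.49), with −0.18 and 0.14 on its other probe sets. These genes had no array overlap, and of the 3 other probe sets of Polr3e and Cmss1 none repeated the size of the brightest.

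The RNA-binding protein gene Rbm4b read 4.21 and 4.00 with vehicle against 3.49 and 3.50 with 4-OHT (−0.61), while its other probe sets gave −0.05 and 0.04 and the mean of its probe sets −0.21. Trp53rka, a kinase of the KEOPS complex of tRNA modification, read 5.74 and 5.41 against 4.96 and 4.95 (−0.62). Both have a close copy elsewhere in the genome, whose transcripts the probe sets may not tell apart. Map2k6, the kinase that activates p38 MAP kinases, read 5.53 and 5.48 against 4.96 and 4.77 (−0.64), and Slc6a15, a transporter of neutral amino acids, read 5.30 and 5.38 against 4.93 and 4.93 (−0.41). Abtb2 read 5.65 and 5.61 against 4.90 and 5.02 (−0.67), with −0.10 and 0.07 on its other probe sets. Tbccd1, which helps to position the centrosome, read 4.81 and 4.66 against 4.03 and 4.18 (−0.63), with −0.17 on its other probe set, and Shcbp1l completed the 12 at −0.49.

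Among the higher genes, Nfatc2ip had the smallest p of all genes. It encodes a partner protein of the NFATC2 transcription factor and read 4.90 and 4.67 with vehicle against 5.34 and 5.42 with 4-OHT. The groups lay apart, with a difference of 0.59 (SE 0.09, 95% interval 0.40 to 0.79; unadjusted p = 2.39e-05, limma adjusted p = 0.298), and its other probe set, at means of 3.54 and 3.66, gave 0.12. Over the other 11 arrays the brightest probe set read 4.68 to 5.12, so that both 4-OHT vector arrays were the highest of all 15.

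The other higher genes had smaller vehicle means, with the exception of Ptpdc1. Spdef, an ETS factor of secretory epithelium, read 4.30 and 4.44 with vehicle against 4.96 and 4.97 with 4-OHT (0.60). Cartpt, a precursor of a brain neuropeptide, read 3.13 and 3.05 against 3.85 and 3.59 (0.63). Myocd, the coactivator of serum response factor in smooth and cardiac muscle, read 3.82 and 3.85 against 4.36 and 4.16 (0.42), with −0.04 on its other probe set. None of these 3 had an array of 1 group inside the range of the other.

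Tnni3, cardiac troponin I, read 3.36 and 3.46 with vehicle against 4.00 and 3.87 with 4-OHT (0.53). Edn3, the vasoactive peptide endothelin 3, read 4.10 and 3.84 against 4.42 and 4.60 (0.54), and its 3 other probe sets gave 0.08, −0.08 and −0.04. Ptpdc1, a phosphatase of ciliary function, was the brightest of the 12, at 5.14 and 5.11 against 5.55 and 5.57 (0.43), with −0.03 to 0.14 on its 4 other probe sets. Zcchc12 read 3.84 and 3.86 against 4.28 and 4.33 (0.45). The other 4, BC048671, Spanxn4, Tmem114 and the plasma protease gene Habp2, had differences of 0.46, 0.46, 0.56 and 0.56.

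**Figure D2:**
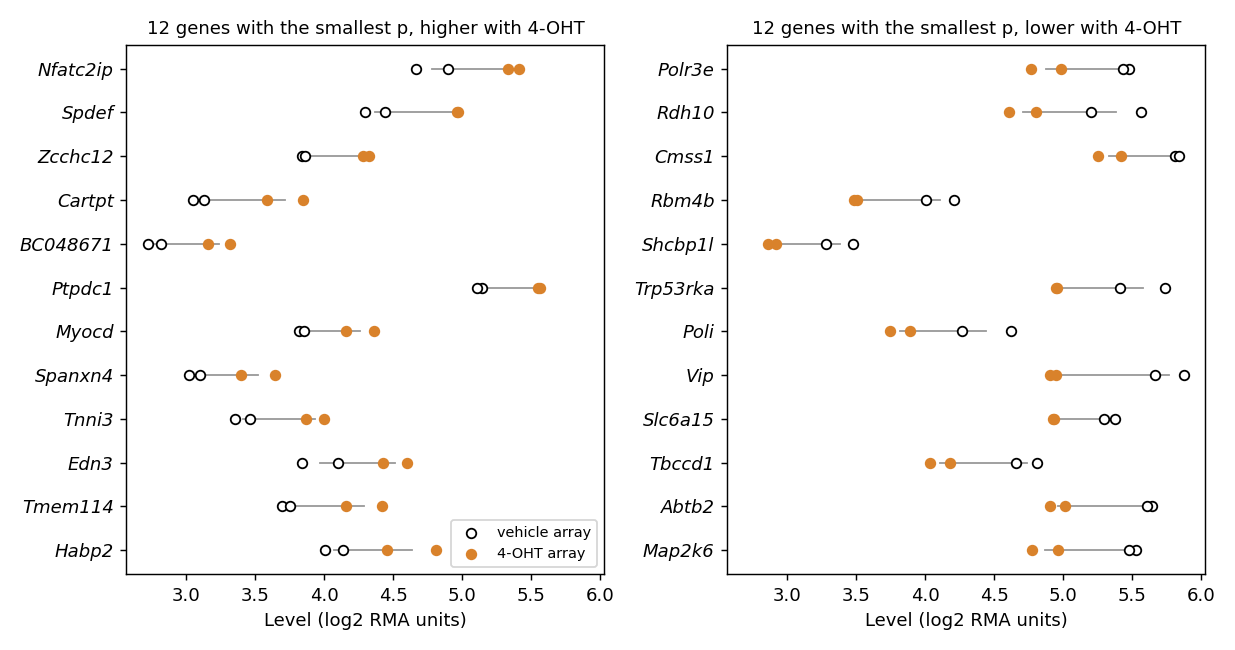
Level (log2 RMA units, horizontal axis) of the 12 genes with the smallest p in each direction on the 2 vehicle arrays (open circles) and the 2 4-OHT arrays (filled circles), with a line between the group means. The groups do not overlap for any of the 24 genes, and Vip has the widest gap.

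The largest difference of all genes by their brightest probe sets, chosen here after its value was seen, was that of Malat1, a nuclear long noncoding RNA. It read 8.65 and 9.58 with vehicle and 10.12 and 10.03 with 4-OHT. The vehicle arrays lay almost as far from each other as the groups did, and the difference of 0.96 had a 95% interval of 0.25 to 1.68 and a limma adjusted p of 0.66. Aspn, a small leucine-rich matrix proteoglycan also named after its value was seen, read 7.08 and 6.63 against 6.42 and 5.77 (−0.76, 95% interval −1.31 to −0.21).

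The known receptors of the ligand were dim, and on their brightest probe sets the intervals of the differences included 0. Esr1, oestrogen receptor alpha, read 3.86 and 4.26 with vehicle and 4.20 and 4.47 with 4-OHT. The groups overlapped, with a difference of 0.28 (95% interval −0.26 to 0.82), and its other probe sets gave 0.19 and −0.24, the latter with an unadjusted p of 0.0306. On the same brightest probe set the RUNX1-ER arrays read 7.02 and 6.01 uninduced and 5.92 and 5.74 induced, all above the vector arrays. Whether this probe set reads the receptor portion of the construct was not tested. Esr2, oestrogen receptor beta, differed by 0.15 (−0.18 to 0.48) and Gper1, the membrane receptor of oestrogen, by 0.14 (−0.10 to 0.37), both at levels between 3.34 and 4.00.

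Of 22 measured oestrogen receptors, related receptors, cofactors and targets, 0 passed the adjusted threshold in limma, 0 reached an unadjusted p under 0.05 in the higher direction and 1 in the lower. Of all genes, 1.93% were higher and 4.80% lower at that p. The list's median was −0.07, beside −0.03 over all genes. The oestrogen target Greb1 read 4.11 and 4.12 with vehicle and 4.02 and 4.01 with 4-OHT, and the progesterone receptor gene Pgr read 3.10 and 3.40 against 3.21 and 3.43. Their differences were −0.10 and 0.07, and the arrays of Pgr overlapped. The list's gene with an unadjusted p under 0.05 was Ncoa2, a coactivator of nuclear receptors, at 7.42 and 7.40 against 7.05 and 7.05 (−0.35, unadjusted p = 0.0354).

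Of the enzymes that bind the drug, Ebp lay in the brightest level class and Dhcr7 in the class below it. Ebp, the sterol isomerase, read 8.14 and 8.17 with vehicle and 8.11 and 8.17 with 4-OHT. The difference was −0.02 (95% interval −0.19 to 0.15). Dhcr7, which completes cholesterol synthesis, read 6.66 and 6.64 against 6.66 and 6.45 (−0.09, −0.33 to 0.15). The groups overlapped for both genes.

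Across the pathway, small differences leaned upwards. Of 20 measured genes of cholesterol synthesis and uptake, out of 25 listed, 0 passed the adjusted threshold in limma. A difference above 0 was found for 17 of the 20, the median was 0.09, and 10 had no array overlap in the higher direction and 1 in the lower, where 10.7% and 24.0% of all genes had none. In the brightest of the 4 level classes, which held 19 of these 20, the median over all genes was −0.04 and 30.8% of genes were above 0. Quantile normalization and cyclic loess each gave 18 of 20 above 0, and the list's median stayed between 0.09 and 0.12 over the 4 scalings. The count above 0 was 13 without vehicle replicate 2, 16 without vehicle replicate 1, 15 without 4-OHT replicate 1 and 18 without 4-OHT replicate 2. The list's median was 0.05 without vehicle replicate 2 and 0.07 without 4-OHT replicate 1, and 0.11 and 0.12 without the others. The summed log2 level of the 20 genes was 176.2 and 175.2 on the vehicle arrays and 177.7 and 177.0 with 4-OHT. The vehicle arrays thus also differed from each other in these genes. Members of the list share the arrays and are not independent replicates.

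Single members stayed close to the error of 2 arrays. Mvd, which makes isopentenyl diphosphate from mevalonate, read 7.96 and 7.82 with vehicle and 8.18 and 8.08 with 4-OHT (0.24, 95% interval 0.03 to 0.44; unadjusted p = 0.0252, limma adjusted p = 0.699). Lss, which closes the sterol rings, read 8.47 and 8.47 against 8.71 and 8.65 (0.21), and Tm7sf2, a sterol reductase, 7.13 and 7.11 against 7.23 and 7.54 (0.26). These were the 3 genes of the list with higher values and an unadjusted p under 0.05, and their number was 1 without vehicle replicate 1, 0 without vehicle replicate 2 and 1 without 4-OHT replicate 1.

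The start of the pathway and its regulators showed the same size of difference or less. Hmgcs1 read 11.02 and 10.91 with vehicle against 11.02 and 10.99 with 4-OHT (0.04), and Sqle, the squalene epoxidase, differed by 0.04 (−0.15 to 0.22). Insig1, the SREBP2 target that retains the SREBP complex in the endoplasmic reticulum, read 8.72 and 8.63 against 8.86 and 8.77 (0.14, −0.07 to 0.34), without overlap. Besides Ebp and Dhcr7, the gene of the list below 0 was Stard4, a carrier of cholesterol between membranes, at 7.64 and 7.63 against 7.44 and 7.47 (−0.17, unadjusted p = 0.0459). Fatty acid synthesis genes, targets of the related SREBP1, had a median of 0.02, with 11 of 16 above 0 and none at an unadjusted p under 0.05 in either direction.

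**Figure D3:**
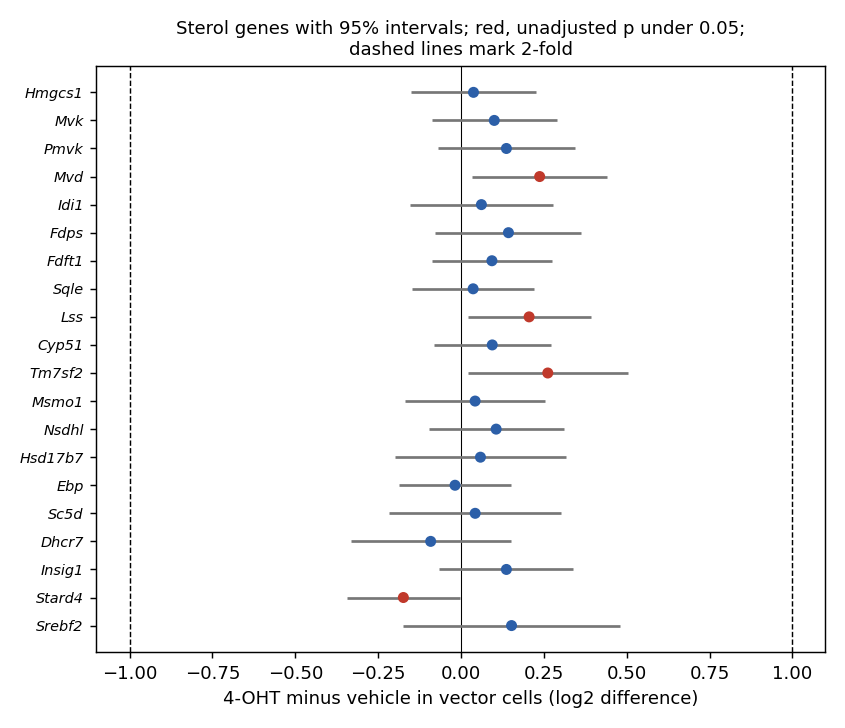
Difference between 4-OHT and vehicle (log2 difference, horizontal axis) with its 95% interval for 20 genes of cholesterol synthesis and uptake, 0 of which passed the adjusted threshold. Red points have an unadjusted p under 0.05, 17 of the 20 points lie above 0, and all intervals lie inside the dashed lines at 2-fold.

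The xenobiotic response was looked for in targets of the aryl hydrocarbon receptor, a ligand-activated factor that induces Cyp1 genes. None of 11 measured genes reached an unadjusted p under 0.05 in limma. Cyp1b1, a cytochrome that hydroxylates oestrogens, read 5.65 and 5.76 with vehicle and 5.67 and 5.68 with 4-OHT (−0.03, 95% interval −0.23 to 0.17). Cyp1a1 was dim, at 3.18 and 3.02 against 3.13 and 3.06, with arrays interleaved. Of 23 genes of drug metabolism and transport, 3 had lower values at an unadjusted p under 0.05, as did 4.80% of all genes: the sterol hydroxylases Cyp27a1 (−0.31) and Cyp7b1 (−0.31) and the drug efflux pump Abcb1b (−0.34).

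In all, 34 gene lists with 714 distinct measured genes were examined. None of the 714 passed the adjusted threshold in limma, and an unadjusted p under 0.05 was reached by 12 in the higher direction (1.68%) and 38 in the lower (5.32%), close to the 1.93% and 4.80% of all genes. List medians ran from −0.11 to 0.09 and 28 of the 34 were below 0, while 12 of the 34 changed sign under another scaling. For 710 of the 714 the 95% interval lay inside 2-fold. The genes named next were picked from the lists for their unadjusted p, after their values were seen.

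In the stress lists, the oxidative stress gene Osgin1 read 4.32 and 4.21 with vehicle against 4.70 and 4.41 with 4-OHT (0.29), the single gene of 20 in the NRF2 list at an unadjusted p under 0.05. The unfolded protein response and ATF4 list of 29 genes had a median of −0.05 and 2 such genes, both lower, the chaperone gene Dnajb9 (−0.44) and the amino acid transporter gene Slc7a5 (−0.35). Neu1, a lysosomal sialidase, read 4.99 and 5.09 against 4.65 and 4.49 (−0.47, unadjusted p = 0.00225) and was the only gene of 23 in the lysosomal list with an unadjusted p under 0.05. Atg12 (−0.33) was likewise alone among 19 autophagy genes. None of these 4 lists had more than 2 members at an unadjusted p under 0.05.

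Genes of growth and survival had list medians between −0.10 and 0.04. Among 27 mitotic genes none reached an unadjusted p under 0.05 and the median was 0.04, and among 29 genes of DNA replication Mcm3 (−0.25) and Cdc6 (−0.42) had lower values. In the p53 list of 18 genes Sesn1 (−0.25), Btg2 (−0.45) and Ei24 (−0.26) were lower at an unadjusted p under 0.05, and in the apoptosis list of 20 the BH3 genes Bid (−0.43) and Bmf (−0.33). Ier2, an immediate early gene, read 8.15 and 8.12 with vehicle against 7.85 and 7.75 with 4-OHT (−0.34), and the list of 25 immediate early genes had a median of −0.10. Of 18 feedback genes of ERK signalling, Dusp6 (−0.34) and Spry1 (−0.32) were lower at that p. Over all genes 4.80% were lower at an unadjusted p under 0.05.

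Among 29 measured TGF-beta and BMP genes, 1 was higher and 1 lower at an unadjusted p under 0.05. The same counts held for 28 chemokine and cytokine genes. Of all genes, 1.93% were higher and 4.80% lower at that p. Tgfb1, the ligand TGF-beta 1, read 5.99 and 5.80 with vehicle and 5.07 and 5.51 with 4-OHT. The groups did not overlap, and the difference was −0.60 (95% interval −0.89 to −0.32; unadjusted p = 0.000546, limma adjusted p = 0.432). Tgfbi, a matrix protein induced by TGF-beta, differed by 0.26 in the other direction, and the median of the 29 TGF-beta and BMP genes was −0.03, or 0.02 after quantile normalization or cyclic loess. Cxcl1, a neutrophil chemokine, read 6.35 and 6.48 against 6.73 and 6.80 (0.35), the single higher gene of 28 in the chemokine and cytokine list, and Lif (−0.29) was the single lower one.

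In the matrix lists, Adamts4, an aggrecan-cleaving protease, read 4.69 and 4.78 with vehicle against 5.45 and 5.00 with 4-OHT (0.49). Emilin1, an elastic fibre glycoprotein, read 6.09 and 6.19 against 6.79 and 6.26 (0.39), with 4-OHT replicate 2 near the vehicle arrays. Dcn, the proteoglycan decorin, read 5.30 and 5.29 against 4.94 and 4.82 (−0.42), the single fibroblast marker of 18 with an unadjusted p under 0.05. Myl9, a myosin light chain of contractile cells, differed by −0.40, while the median of 26 contractile and actin genes was 0.00 and between 0.01 and 0.02 under the other scalings.

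Runx genes themselves did not pass the test. Runx1 read 4.56 and 4.75 with vehicle and 4.71 and 4.78 with 4-OHT (0.09, 95% interval −0.16 to 0.35), and its partner Cbfb read 9.40 and 9.52 against 9.39 and 9.28 (−0.13, −0.31 to 0.06). The 5 other probe sets of Runx1 gave differences from −0.33 (unadjusted p = 0.0242) to 0.11, so that its sign depended on the probe set. The probe set used for Runx1 was chosen by a mean that includes the arrays with murine Runx1, where it read 9.11 and 9.30. In vehicle vector cells its mean of 4.65 was below those of the probe sets with −0.33 (4.82) and 0.11 (4.88). Runx3 had a difference of −0.32, at an unadjusted p of 0.0489. The list of Runx factors and corepressors had the lowest median of the 34, −0.11.

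**Figure D4:**
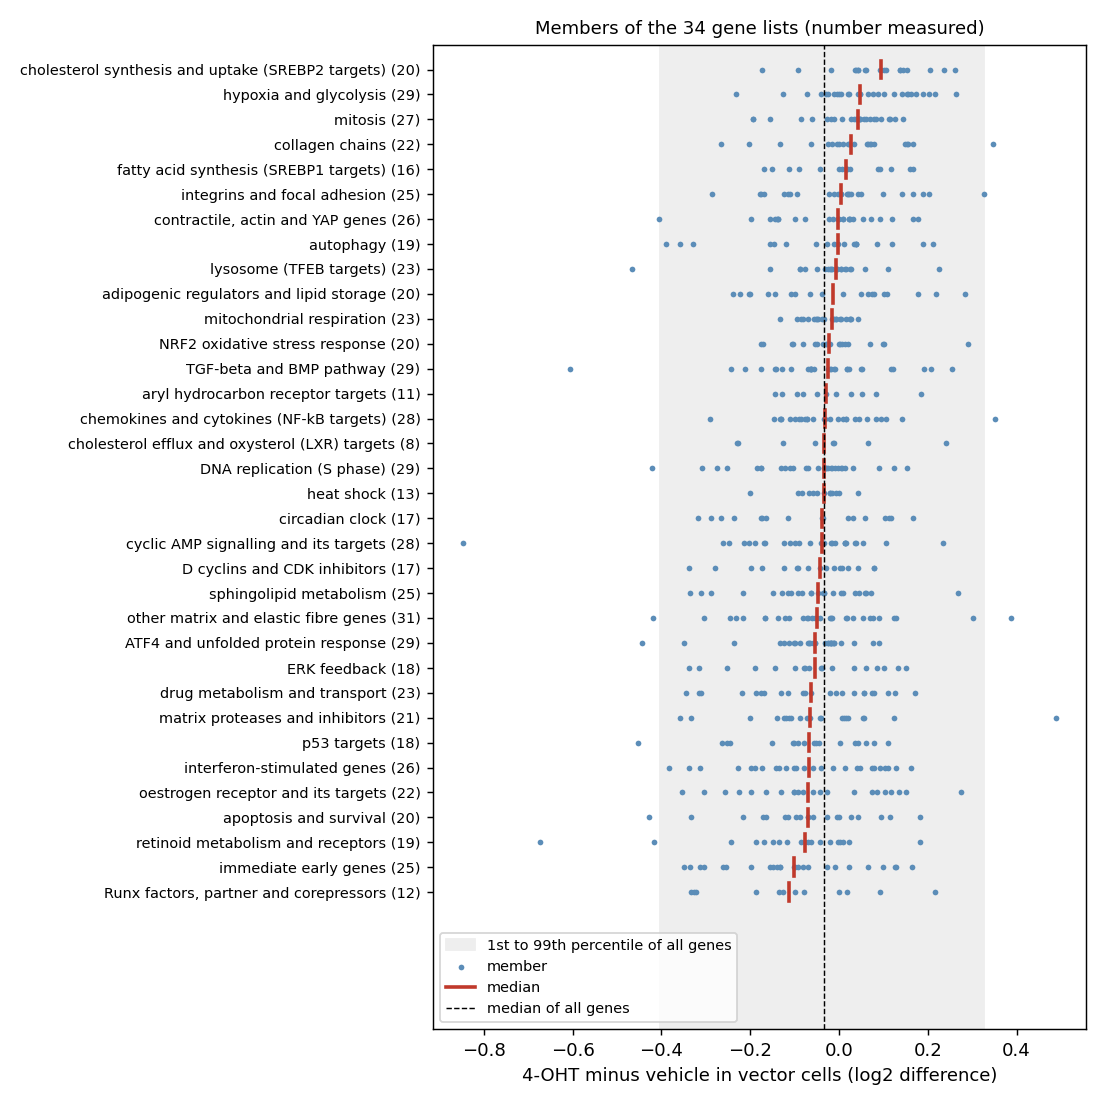
Difference between 4-OHT and vehicle in vector cells (log2 difference, horizontal axis) for the members of 34 gene lists (points; number measured in brackets) with each list's median (red bars), the median of all genes (dashed line) and the range from the 1st to the 99th percentile of all genes (grey). Cholesterol synthesis has the highest median, 0.09, and the Runx list the lowest, −0.11.

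The same ligand was given to cells with the RUNX1-ER construct, which shared no array with the vector comparison. There 183 genes rose (1.01%) and 166 fell (0.912%) in limma at an adjusted p under 0.05, 49 of them by at least 2-fold, where the vector cells had 0 and 0. After median centring 145 rose and 195 fell. The total of 349 was 153 without uninduced replicate 2, 145 without induced replicate 1 and 129 without induced replicate 2. Across the 8048 genes with a mean above 5, differences in the vector cells and in the RUNX1-ER cells had a Pearson correlation of −0.08, a description across genes, which share the arrays and are not independent replicates.

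Genes that passed the threshold in RUNX1-ER cells had medians near 0 in vector cells, over wide ranges. The 183 that rose had a median of 0.71 in RUNX1-ER cells and of −0.07 in vector cells, with a range of −0.67 to 0.49, and 4 of them were higher (2.19%) and 15 lower (8.20%) in vector cells at an unadjusted p under 0.05, where 1.93% and 4.80% of all genes were. The 166 that fell had medians of −0.57 and −0.01 and a range in vector cells of −0.85 to 0.35, with 1 higher (0.602%) and 5 lower (3.01%). The ends of these ranges below 0 were Rdh10 and Vip. Cyp1b1 rose by 1.14 in RUNX1-ER cells (limma adjusted p = 2.71e-05), from 6.10 and 6.27 to 7.38 and 7.28, and had a difference of −0.03 in vector cells. Emilin1 (1.76) and Adamts4 (1.68) rose in RUNX1-ER cells, and they were 2 of the 4 that rose and were higher in vector cells at an unadjusted p under 0.05, with Loxl3 and Grk5.

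The difference between the responses was tested as an interaction. In limma 89 genes responded more positively in RUNX1-ER than in vector cells (0.489%) and 21 more negatively (0.115%) at an adjusted p under 0.05. The total of 110 was 55 without vehicle replicate 1 of the vector cells, 66 without vehicle replicate 2 and 71 without induced RUNX1-ER replicate 2. The split depended on scaling, with 69 and 28 after quantile normalization and 68 and 27 after cyclic loess.

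Of the 12 lower genes named above, 6 passed this interaction and 0 of the 12 higher ones did. The vector values that chose these genes enter the interaction, so these counts describe them and are no independent support. Rdh10 went from 5.61 and 5.72 to 7.92 and 7.86 in RUNX1-ER cells, a rise of 2.23 (adjusted p = 7.91e-07), against −0.67 in vector cells. Tbccd1 rose by 1.41 there (adjusted p = 4.97e-05), Cmss1 by 0.52 (adjusted p = 0.0113) and Slc6a15 by 0.47 (adjusted p = 0.00822), each with a negative difference in vector cells. Poli and Map2k6, with differences of 0.33 and 0.47 in RUNX1-ER cells that did not pass (adjusted p = 0.271 and 0.102), completed the 6.

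Vip was the only gene of the 12 that fell past the threshold in RUNX1-ER cells. There it read 5.34 and 5.72 uninduced and 4.22 and 4.12 induced, and fell by 1.36 on the log2 scale (limma adjusted p = 0.000637). Its interaction was −0.51 (adjusted p = 0.462), which does not show that the responses were alike. In the 7 arrays of cells with constitutive RUNX genes, for which the labels do not say whether 4-OHT was given, Vip read 3.19 to 3.96. The order from highest to lowest was thus vehicle vector cells and uninduced RUNX1-ER cells, whose arrays overlapped, then 4-OHT vector cells, induced RUNX1-ER cells and the constitutive lines.

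Sterol genes did not repeat their upward lean in RUNX1-ER cells. With 4-OHT, 6 of the 20 were above 0 there, 0 passed the adjusted threshold and the median was −0.07, against 0.09 in vector cells. Of all genes, 55.8% were above 0 in RUNX1-ER cells, and the median of the brightest level class was −0.001. The lines did not start alike. Without 4-OHT, most genes of the list stood higher on both RUNX1-ER arrays than on the vector arrays. Hmgcs1 read 11.34 and 11.31 in uninduced RUNX1-ER cells against 11.02 and 10.91, and Insig1 9.11 and 9.07 against 8.72 and 8.63. The arrays overlapped for Fdps, Tm7sf2, Ebp, Sc5d and Srebf2. Whether the starting level bears on the response was not tested. The difference in response between the lines was not tested for the sterol genes as a list.

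**Figure D5:**
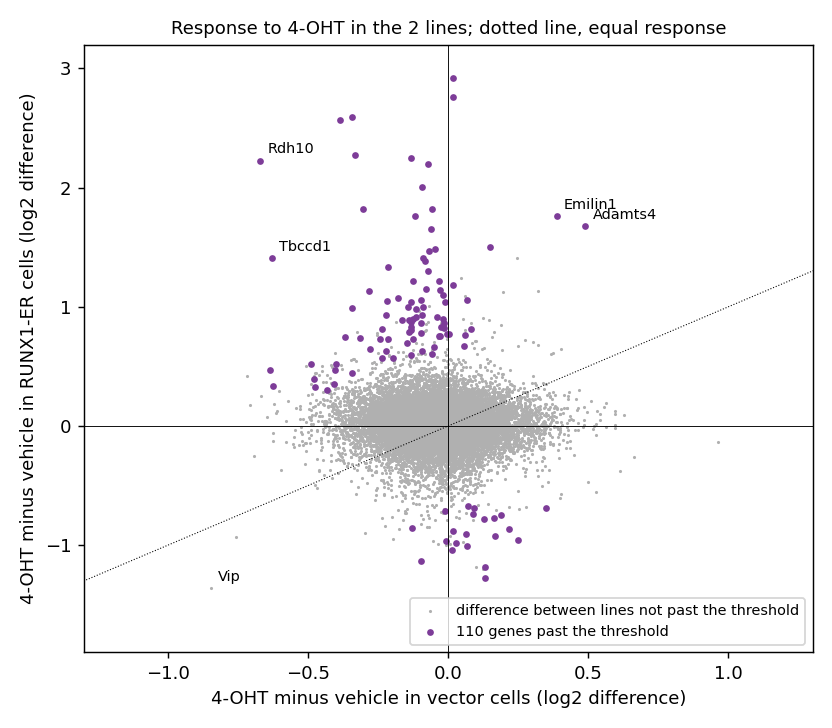
Response to 4-OHT (log2 difference) in vector cells (horizontal axis) and in RUNX1-ER cells (vertical axis, drawn over a wider range), 1 point for each gene, with the 110 genes whose responses differed at an adjusted p under 0.05 in colour. Points in colour spread along the vertical axis, and Vip is low on both axes, at −0.85 and −1.36.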

How the data were processed

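Arrays of 15 samples in 8 groups were read. The authors deposited log2 values, made per the labels' protocols from GCOS output with RMA (Bioconductor's affy, run in the FunAlyse pipeline). Versions and probe-set definitions were not given in the sources used here. This method brings all arrays to a similar distribution and would hide a change in total RNA. Of 45101 probe sets, 34958 carried a single symbol in GEO's annotation of the platform, 932 several and 9211 none, 64 being control probe sets. Symbols were checked through Entrez IDs for 34754, and 0 changed. Each of 18193 genes was represented by its probe set with the highest mean.

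Groups were compared with limma 3.58.1 in R 4.3.3 (lmFit and eBayes, 1 coefficient per group over 15 arrays, 7 residual and 5.65 prior degrees of freedom), with two-sided p-values adjusted by Benjamini-Hochberg within each of 3 comparisons at 0.05. An exact permutation test of 2 arrays against 2 cannot give a p below 0.333 and was not used. Where fewer than 5 genes passed each way, the rule named the 12 with the smallest p each way, skipping predicted and RIKEN clones; receptors, drug-binding enzymes, Cyp1b1, Vip, Rdh10, Runx1 and Cbfb were named whatever their values. The members, gene lists and rules were chosen with earlier results of these data known. The steps were tested on simulated data. Alternatives were fewer arrays, a replicate block, other probe-set rules, a level filter, other scalings, an intensity trend, array weights and leaving out each array; cyclic loess was added after seeing the data. Promoter windows came from RefSeq (GRCm38.p6). The array's own genome build is not given in the sources used here, and no array coordinates are used.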

Additional observations from a re-analysis of the deposited data

Results flagged for a closer look

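For 7 of the named genes the response to 4-OHT differed between the RUNX1-ER and the vector cells by limma's interaction test over all genes. The difference of the responses, RUNX1-ER minus vector, was 2.90 for Rdh10 (adjusted p = 2.17e-06), 2.04 for Tbccd1 (adjusted p = 0.000128) and 1.17 for Cyp1b1 (adjusted p = 0.000844). It was 1.10 for Map2k6 (adjusted p = 0.0119), 1.01 for Cmss1 (adjusted p = 0.00266), 0.96 for Poli (adjusted p = 0.0202) and 0.87 for Slc6a15 (adjusted p = 0.00266). All but Cyp1b1 were named for a low value with 4-OHT in vector cells, which enters this test.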

How the results depend on the processing

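The count of 0 genes for 4-OHT in vector cells was 0 in all settings but 1: leaving out each array gave 0 to 4 genes, with 4 only without 4-OHT replicate 1. The smallest adjusted p in limma ran from 0.0179 in that setting to 0.81 with the 4 arrays alone. RUNX1-ER induction gave 231 genes with 8 arrays, 93 with 4 arrays, 170 with 4 arrays and a replicate block, 638 with an intensity trend, and 129 to 305 when an array was left out, and its split of 183 and 166 was 145 and 195 after median centring. The interaction gave 230 genes above a mean of 5, 319 with a trend and 55 to 127 when an array was left out.

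Numbers in the titles gave a correlation of 0.131 between the replicate deviations of both vector groups, and nothing else pairs the arrays. With the replicate block over 15 arrays the 3 counts were 0, 306 and 102, and the block over 4 arrays gave 0 in vector cells.

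For 32 named genes, 452 of 462 alternative values kept their sign in vector cells and 10 reversed it, with 0 past the threshold. This count is no measure of robustness. Fits to fewer groups, a replicate block, an intensity trend and array weights left each difference as it was. The 12 higher and 12 lower genes had no array overlap, so leaving out an array could not reverse them. All 10 reversals were in Esr2, Ebp, Dhcr7, Cyp1b1 and Runx1, which were named whatever their values. Ebp was 0.0275 after quantile normalization and 0.0283 after cyclic loess, and Cyp1b1 was 0.0501 and 0.0317. Runx1 was −0.0203 as the mean of its probe sets. With an array left out, Esr2 ran from −0.0138 to 0.315, Ebp from −0.049 to 0.0131, Dhcr7 from −0.197 to 0.0142, Cyp1b1 from −0.0841 to 0.025 and Runx1 from −0.001 to 0.186. The medians of 12 of the 34 lists changed sign under another scaling. Those of cholesterol synthesis, fatty acid synthesis, hypoxia, mitosis, collagen chains, and integrins and focal adhesion stayed above 0. The cause of these shifts was not tested. With 2 arrays a group, the median distance from a difference to its 95% bound was 0.25 log2 units, and smaller differences are not resolved gene by gene.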
